A study of Canis lupus familiaris with 6 samples.

Results

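Of the 289 canine miRNAs on the array, 165 carried no detection call in any of the 6 samples, and 162 of them, 56.1% of all miRNAs on the array, are described here (3 others were left out by name). The rule reads the detection flag of the scanner software for each miRNA on each array, and keeps a miRNA only where the flag is 0 on every array. On all 6 arrays the flag was set for exactly those miRNAs with a probe whose signal was more than 3 times its error, as tested on all 289. The signals therefore chose the members, and their levels are given as a description. Tests were made only between Sca1+ and Sca1- cells, at the end, on signals under the limit. "Undetected" means below this limit and not absent from the cells.

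Sca1+ and Sca1- cells had been sorted by flow cytometry from each of 3 lines of dog mammary cancer (CMT-U27, CMT-U309, P114), all grown in serum-containing RPMI-1640 medium, giving 1 sample for each fraction of each line. The labels name the Sca1+ cells cancer stem cells and the Sca1- cells the control. 1 field of the labels describes the P114 samples as grown with macrophages and the others as mono-culture, which no other field mentions. Total RNA was hybridized to Agilent miRNA arrays, read in 1 green channel although the labels name Cy5, and the arrays held 378 probes and 6480 spots for the 162 miRNAs.

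miRNAs are short RNAs cut from hairpin transcripts that repress the messenger RNAs they pair with. Many are restricted to a tissue or a developmental stage, such as miR-1 in muscle, miR-122 in liver or miR-124 in neurons, and many sit in clusters that are copied into 1 transcript. Each hairpin can release a strand from either arm, 5p or 3p, and commonly only 1 of them accumulates.

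The deposited table and the scanner files assign 4 of the 6 arrays to different samples. Which of them is right could not be worked out. Arrays are therefore named by brightness. B1, B2 and B3 detected 111, 91 and 89 miRNAs, and D1, D2 and D3 detected 39, 22 and 9. By the scanner files B1 and B2 are Sca1+ and Sca1- of CMT-U309, D1 and D2 those of CMT-U27, and D3 and B3 those of P114. A miRNA undetected on every array is undetected by either assignment.

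The dog names mostly carry no arm, so the probes show which strand was looked for. The longest probe of each of 10 miRNAs known from particular tissues is shown for that reason, 5′ to 3′ as the scanner files give it. A probe is the reverse complement of the miRNA it reads.
miR-1: tacatacttctttacattcca
miR-122: caaacaccattgtcacact
miR-124: tggcattcaccgcg
miR-126: cgcgtaccaaaagtaataatg
miR-142: tagtgctttctactttatggg
miR-143: gagctacagtgcttc
miR-145: agggattcctggga
miR-200a: tccagcactgtccggt
miR-200b: tccaatgctgcccag
miR-302b: gaaagtacttccatgttaaa
The complements of the probes for miR-126, miR-142, miR-200a, miR-200b and miR-302b are the 5p strands known from other mammals, while those for miR-1, miR-122, miR-124, miR-143 and miR-145 belong to the strand usually reported. Statements below on miR-126, miR-142, miR-200a, miR-200b and the miR-302 group therefore concern the 5p strand.

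Signals of the undetected miRNAs lay near or below 0 on every array. The median processed intensity of their spots, which the software corrects for gradients across the array, was -1.46, -1.04 and -1.18 on B1, B2 and B3 and -1.01, -1.74 and -0.949 on D1, D2 and D3. The medians of negative control spots were higher on each array, from 2.31 on B1 to 3.64 on D2. The 95th percentile of the members' spots was 7.65 on B2 and between 3.26 and 4.85 on the other 5 arrays. The members' spots spread more widely on B2 than on the other arrays.

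The dimmest miRNA spot called well above background, the limit for a spot, was at 13.5, 21.2 and 15.7 units on B1, B2 and B3 and 12.4, 13.2 and 11.8 on D1, D2 and D3. Spots flagged as outliers were left out of these values. Of the spots kept, only 4 member spots passed, 1 of 6150 on B1, 2 of 6093 on B2 and 1 of 6201 on D1. They belonged to miR-299 (2 spots on B2), miR-362 and miR-409. More member spots passed among those flagged as outliers, 21 of 330, 23 of 387 and 69 of 384 on B1, B2 and B3. On D1, D2 and D3 these were 37 of 279, 52 of 365 and 44 of 406. With them kept, the share of member spots that passed ran from 0.340% on B1 to 1.06% on B3. No negative control spot among those kept passed on any array. Of the spots of the 124 detected miRNAs, 69.6%, 52.8% and 54.4% passed on the bright arrays B1, B2 and B3 and 19.0%, 8.14% and 3.81% on D1, D2 and D3.

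**Figure D1:**
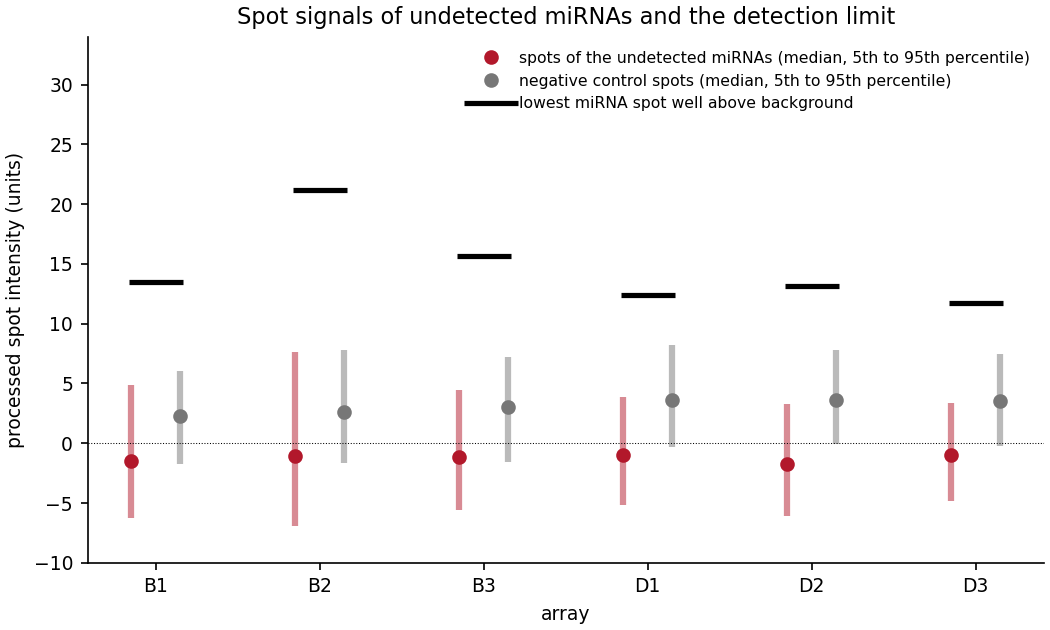
Processed spot intensity on each array for the spots of the undetected miRNAs (red) and the negative control spots (grey). Points are medians, bars run from the 5th to the 95th percentile over spots, and black lines mark the dimmest miRNA spot well above background (13.5 units on B1, 11.8 on D3), which lies above both bars on every array.

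The limit matters most on the dim arrays. Shares here are of the summed total signal of the miRNAs detected on an array. The lowest total signal of a detected miRNA made up 0.0152%, 0.0129% and 0.0111% of that sum on the bright arrays B1, B2 and B3. On D1, D2 and D3 it made up 0.323%, 0.589% and 3.95%. Of the 111 miRNAs detected on B1, 106 held a share of its sum under 3.95%, and 68 one under 0.323%. Most miRNAs seen on B1 thus held a share under the lowest on D3, though these sums cover 111 and 9 miRNAs. On B1, B2 and B3 alone, 163 miRNAs were undetected. Without B1, 186 were, since 24 of the 32 miRNAs seen on exactly 1 array were seen on B1.

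The members were grouped by tissues and clusters that their names are known for. In the lists, 87 of 118 miRNAs were undetected, and 75 members belonged to no list. Across the array 57.1% of miRNAs were undetected, which is the background for each share below, and since the same flags chose the members, nothing is read from the excess of a list over it.

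Of the 8 muscle miRNAs on the array 7 were undetected: miR-1, miR-133a, miR-133b, miR-133c, miR-206, miR-208a and miR-208b. miR-1, which drives muscle differentiation and lies beside miR-133a and miR-133c on chromosomes 7 and 24, had summed probe signals of -4.69, -6.87 and 1.59 on B1, B2 and B3 and -1.16, -3.22 and 0.627 on D1, D2 and D3. None of these approached the limit and the bright arrays were not above the dim ones. miR-208a and miR-208b lie inside MYH6 and MYH7, the cardiac myosin heavy chain genes. The exception in the list was miR-499, a myosin-gene miRNA, detected on B1 alone with a total signal of 12.9.

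In the brain list 16 of 22 miRNAs were undetected, among them miR-124, miR-137, miR-153, miR-132 and miR-212. miR-124, the most abundant neuronal miRNA, which maps to chromosomes 24, 25 and 29, gave -13.1, -15.8 and -10.1 on B1, B2 and B3 and -7.65, -11.4 and -7.49 on D1, D2 and D3. Each value lay below 0. Of the 6 others, miR-128 was detected on B1, B2 and B3 at 47.4, 23.8 and 23.3 units, miR-7 on the same arrays at 101.5, 52.97 and 44.8 units, and miR-874 on these and D1. miR-9, miR-138a and miR-219 were detected on B1 alone.

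The short lists for liver, for pancreas and islet, and for gut and kidney, of 1, 5 and 3 miRNAs, held no detected one. The liver miRNA miR-122 (chromosome 1, 20601560 to 20601577 on canFam2, the build of the scanner files) gave -2.03, -0.717 and 2.86 on B1, B2 and B3 and 2.08, 3.60 and 2.99 on D1, D2 and D3. The bright arrays were thus no higher than the dim ones. All 5 miRNAs of the pancreas and islet list were undetected, including miR-375, a miRNA of islet cells that is also abundant in luminal breast cancer, which ran from -11.3 on B2 to -4.51 on D3. miR-192, miR-194 and miR-215 of gut and kidney were undetected as well. miR-192 came nearest, with 11.3 on B1 and 15.3 on B2 against 1.16 on B3 and 0.645 to 1.95 on the dim arrays.

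Blood and vessel miRNAs were split. miR-142 and miR-150 of leukocytes, miR-144 of red cells and miR-126 of endothelium were undetected. In the same leukocyte list miR-155 and miR-223 were detected on 3 and 6 arrays, and miR-146a and miR-146b on 1 each. miR-142, made in nearly all blood cells, gave 1.96, 6.09 and -1.65 on B1, B2 and B3 and -0.864, 0.690 and -4.65 on D1, D2 and D3. miR-126, which lies inside EGFL7, a gene of endothelial cells, gave 2.86 to 5.29 on the bright arrays and 5.08 to 7.88 on the dim ones. The label of macrophage culture belongs to P114, whose arrays are B3 and D3 by scanner file and B1 and B3 by value table. By the rule for members no array detected miR-142, so nothing is read from it about macrophages. miR-144 was undetected although its neighbour miR-451, 0.215 kb away end to end on chromosome 9, was called on B2 and D2 at 18.1 and 39.4 units.

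Of the 10 miRNAs in the epithelial list only miR-200a and miR-200b were undetected. Both lie in TTLL10 on chromosome 5, within 2.17 kb of miR-429, which had a total signal of 338 on B1. Their probes look for the 5p strand, whereas the probe of miR-429 (acggcattaccagacagta) pairs with its 3p strand, the strand that carries the seed of the family. miR-200b gave 3.51, -8.64 and -6.66 on B1, B2 and B3 and -8.23, -10.1 and -5.08 on D1, D2 and D3. B1, the array on which miR-429, miR-141 and miR-200c were brightest, was the only array above 0, with a probe signal of 2.80 times its error, just short of the call. miR-200a was at -0.0742 on B1 and between -8.74 and -5.73 elsewhere, so B1 was again the highest array.

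The pluripotency cluster miR-302 with miR-367, a mark of embryonic stem cells, was undetected on the 5p strands that its probes look for. Its other strands were not looked for, so nothing is read about the cluster as a whole. Its 5 miRNAs lie within 0.617 kb of chromosome 32 inside LARP7, and their highest signal-to-error ratio on any array was 0.441. miR-302b gave -6.06, -13.25 and -2.33 on B1, B2 and B3 and -1.27, -4.89 and -0.721 on D1, D2 and D3, with no array above 0. The remaining member of that list, miR-371, was detected on D1 alone at 99.4 units.

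miR-34b and miR-34c, p53 targets that are abundant in ciliated cells, were undetected along with miR-449, while their relative miR-34a was detected on B1, B2 and B3. Of the Hox-cluster list, miR-196a, miR-196b and miR-615 were undetected. miR-10, which lies inside HOXB3, is described below with its relative miR-10b.

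**Figure D2:**
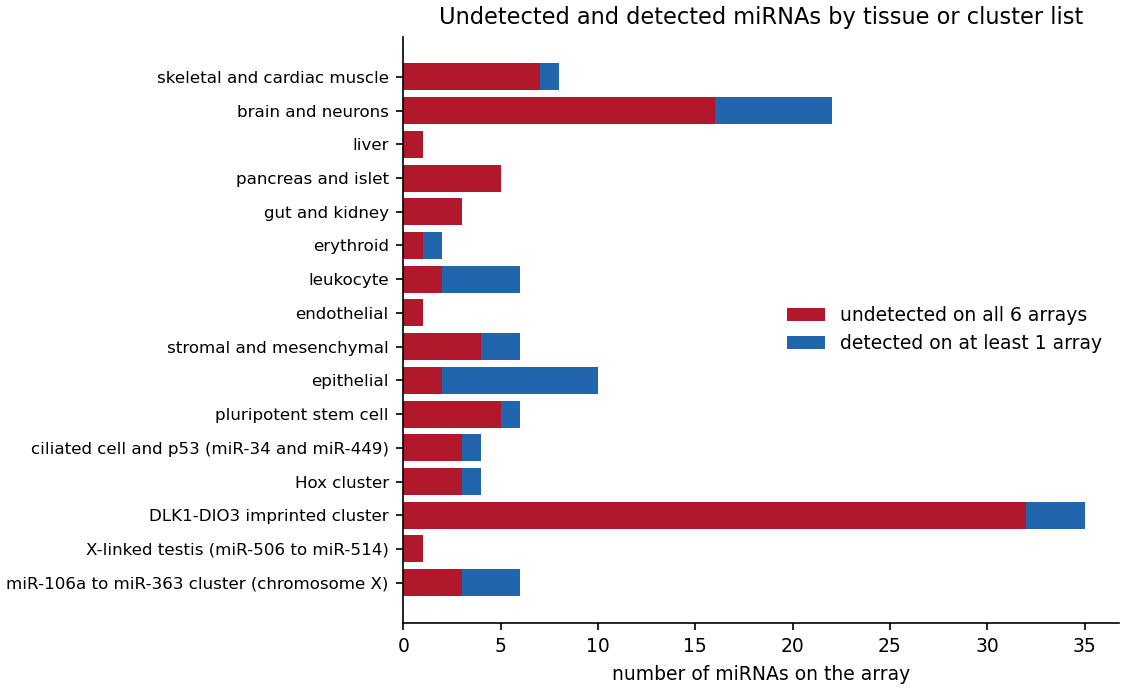
Number of miRNAs on the array that were undetected on all 6 arrays (red) or detected on at least 1 (blue), for each list of miRNAs. The imprinted cluster has the most undetected miRNAs, 32 of 35, and the epithelial list the smallest share, 2 of 10.

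Members were also grouped by position. With a limit of 10 kb between neighbours, 69 of 162 members had another member beside them. The same count was not made for detected miRNAs, so nothing is read from it. Many clustered members lay in the DLK1-DIO3 region of chromosome 8, 26 from miR-379 to miR-410 and 6 from miR-493 to miR-136. The array held 48 clusters of at least 2 miRNAs, of which 13 had no detected miRNA, 16 mixed undetected and detected ones, and 19 had no member. Those 13 held 32 members and the mixed ones 47. Some pairs are the 2 arms of 1 hairpin, such as miR-219 (detected) and miR-219*.

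The imprinted DLK1-DIO3 region, whose miRNAs are copied from the maternal chromosome and are abundant in embryo, brain and stroma, was the list with the most undetected miRNAs. In its list 32 of 35 miRNAs were undetected. On chromosome 8, the 6 miRNAs from miR-493 to miR-136 (72137130 to 72149370) were all undetected, 4 of them inside RTL1. Of the 28 from miR-379 to miR-410 (72296547 to 72337165), 26 were undetected. miR-494 stood apart in that row, with total signals of 2723, 764 and 1423 on B1, B2 and B3 and 406, 513 and 57.7 on D1, D2 and D3. miR-134 was called on B1 at 32.5 units and on B3 at 7.82. The neighbours of miR-494 on each side, miR-329a and miR-543, stayed below 1 error of 0 on all arrays.

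Some members of the region stayed above 0. The summed probe signals of miR-409 were 10.5, 19.2 and 12.6 on B1, B2 and B3 and 13.6, 11.8 and 11.99 on D1, D2 and D3, so it was above 0 on all 6 arrays and no brighter on the bright ones, apart from B2. miR-136 was also above 0 on all of them, at 8.08, 11.3 and 8.31 on B1, B2 and B3 and 7.22, 8.65 and 6.31 on D1, D2 and D3. miR-299, the member closest to detection, gave 1.21, 32.8 and 3.25 on B1, B2 and B3 and 3.71, 4.41 and 1.60 on D1, D2 and D3. Only B2 stood out, at 2.94 times the error.

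A cluster on chromosome X from miR-532 to miR-502 (42728159 to 42739132), inside the chloride channel gene CLCN5, held 4 undetected and 2 detected miRNAs. Its detected members were miR-188, on B1, B2, B3 and D2 at 80.5, 77.3, 55.02 and 13.6 units, and miR-660, on B1 at 12.7. miR-502 gave 13.7, 0.322 and 6.38 on B1, B2 and B3 and -5.03, -7.89 and -6.38 on D1, D2 and D3. miR-362 gave 6.29, 3.07 and 9.98 on the bright arrays and -5.67, -6.78 and -4.15 on the dim ones. In 3 of the 4 undetected members (not miR-500) every bright array was above every dim one. That order held for 12 of 162 members and for 40.8% of all miRNAs on the array, and nothing is read from it here.

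The X-linked paralogue of the miR-17 cluster was also split. Of its 6 miRNAs, miR-106a, miR-19b and miR-92a were detected and miR-18b, miR-20b and miR-363 were not. The probes of miR-19b and miR-92a also map to the miR-17 cluster of chromosome 22, so their signal cannot be assigned to either locus. miR-106a, whose probe differs from that of miR-20b at 1 base, was the only detected miRNA of the locus without such a copy. miR-20b gave -2.88, -8.01 and -5.66 on B1, B2 and B3 and -5.35, -10.2 and -6.54 on D1, D2 and D3, and miR-18b ran from -9.74 on B2 to -2.39 on D3. Neither was above 0 on any array.

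**Figure D3:**
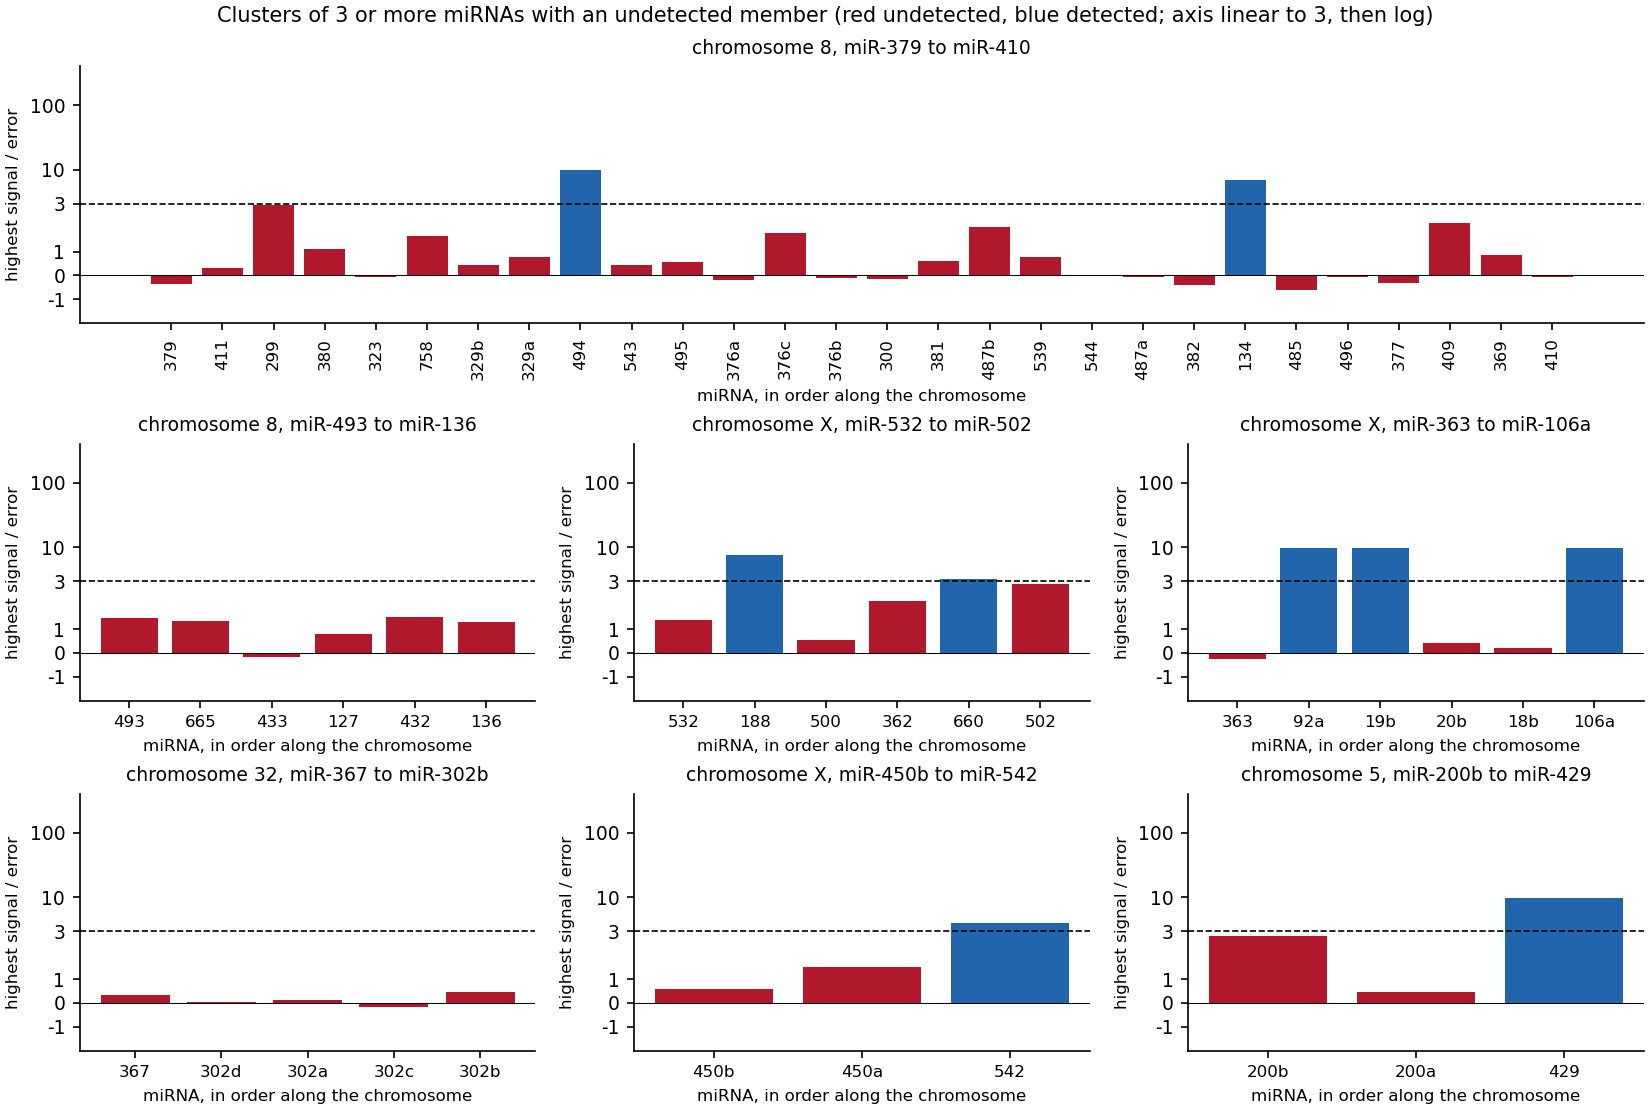
Highest probe signal divided by its error over the 6 arrays for each miRNA of the clusters with at least 3 miRNAs and an undetected one, in order along the chromosome. Red bars are undetected miRNAs, blue bars detected ones, and the dashed line at 3 is the detection rule. The axis is linear up to 3 and logarithmic above, and miR-494 and miR-134 rise alone out of the row from miR-379 to miR-410.

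miR-653 was undetected beside miR-489 in CALCR, the calcitonin receptor gene, although miR-489 reached 122 on D1, 133 on D2 and 39.2 on B1. miR-214 was undetected 5.84 kb from miR-199, whose signals were 245 and 193 on B2 and B3 and whose probes map to 3 loci. miR-193b was undetected beside miR-365, seen on all 6 arrays, whose probes map to chromosomes 6 and 9. miR-421 and miR-545 were undetected beside miR-374b and miR-374a, and miR-301b beside miR-130b. Each of these statements covers only the strand that the probe looks for, and for miR-193b and miR-545 that strand is not named here. miR-143 and miR-145, miR-216a and miR-217, miR-132 and miR-212, and miR-224 and miR-452 were undetected as pairs.

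Several undetected miRNAs differ by 1 or 2 probe bases from a detected relative. There were 10 such members in 12 pairs, over stretches of 13 to 23 bases. The pairs below show how small the differences are, with the bases that differ in capitals.
miR-10: acaaattcggAtctacagg
miR-10b: acacaaattcggTtctacaggg
miR-18b: taActgcactagatgcac
miR-18a: taTctgcactagatgcac
miR-20b: tacctgcactgtGagc
miR-106a: ctacctgcactgtAagc
miR-135a-5p: tcacataggaatAaaaagccata
miR-135b: tcacataggaatGaaaagccata
miR-301b: gctttgacaataTCattgc
miR-301a: gctttgacaataCTattgcac
miR-10b, a Hox-cluster miRNA linked to invasion, had total signals of 114.4, 82.2 and 49.7 on B1, B2 and B3, where miR-10 gave -2.60, 1.33 and -2.45. miR-18a of the proliferation-linked miR-17 cluster reached 144, 85.8 and 58.5, where miR-18b gave -4.40, -9.74 and -6.13. miR-106a reached 399, 417 and 269 on B1, B2 and B3, and miR-301a 159, 107.5 and 113.96, while miR-301b lay between -7.32 and 0.130. miR-135b reached 170, 95.1 and 89.6, against 5.17, 12.7 and 7.75 for miR-135a-5p. Each pair joins an undetected miRNA to a detected one by construction, so the gap is fixed by the detection rule and nothing is read from it. On the dim arrays, where miR-135b was not detected, its summed probe signals were 7.25, 8.17 and 7.90 on D1, D2 and D3, beside 7.98, 7.60 and 8.43 for miR-135a-5p. Whether a probe also reads the relative was not tested.

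**Figure D4:**
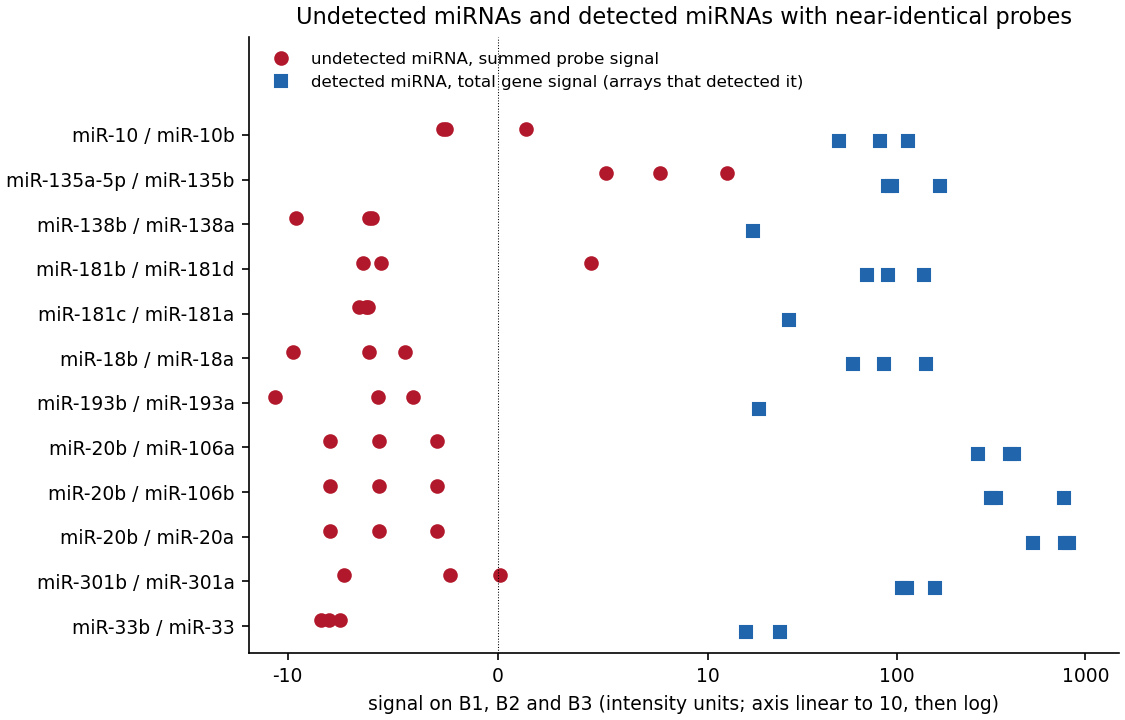
Signals on B1, B2 and B3 for the undetected miRNAs (red, summed probe signal) and the detected miRNAs whose probes differ at 1 or 2 bases (blue, total gene signal on the arrays that detected them). The axis is linear up to 10 and logarithmic above. Blue points run from 15.9 units for miR-33 to 820 for miR-20a, and the detection rule sets them right of the red ones.

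Most members were far from the limit. The highest signal-to-error ratio over the 6 arrays was under 1 for 109 of 162, from 1 to under 2 for 33 and at least 2 for 20. The nearest inside the rule, by this ratio, were miR-299 (2.94), miR-502 (2.88), miR-1307 (2.88), miR-196a (2.84), miR-326 (2.83), miR-200b (2.80) and miR-150 (2.76). The 10 dimmest miRNAs detected on exactly 1 array, just outside, had ratios of 3.04 to 4.97 and total signals of 8.71 to 17.4. They were miR-448, miR-92b, miR-147, miR-660, miR-499, miR-335, miR-1844, miR-30e, miR-219 and miR-138a, and 8 of the 10 were seen on B1.

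The members nearest to the limit were of several kinds, described here after their values were seen. In miR-299, miR-1307, miR-326, miR-150, miR-504 and miR-764, B2 alone was high. miR-150, a lymphocyte miRNA, gave 16.6 on B2 and between -6.90 and -3.61 on the other 5 arrays. B2 had the widest member spots, and its part in these values was not tested. In others, such as miR-145, miR-362 and miR-574, all 3 bright arrays were above the dim ones.

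Every bright array was above every dim one for 12 of 162 members (7.41%), against 106 of the 124 detected miRNAs and 40.8% of all miRNAs on the array. The opposite order held for 22 members (13.6%), against 7.96% of all miRNAs. The share with bright arrays above dim ones was under that of the array. Arrays were named bright for detecting more miRNAs, and members were chosen for being detected on none. The lower share follows from these rules, and nothing is read from it. These sums are not scaled between arrays, and 9 of the 12 kept the order after scaling (not miR-196a, miR-218 and miR-532). Scaling divided each sum by a positive value, larger on every bright array than on any dim one. For all of the 9 but miR-574, every dim sum was below 0, so division could not change the order. Keeping it is therefore no check for them. The 12 were miR-145, miR-218, miR-143, miR-214, miR-502, miR-362, miR-532, miR-574, miR-196a, miR-631, miR-487b and miR-493.

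All 4 undetected miRNAs of the stromal and mesenchymal list, miR-143, miR-145, miR-214 and miR-218, were among them. Across the array the same order held for 40.8% of miRNAs. miR-145, which promotes smooth muscle identity, gave 6.59, 7.08 and 8.90 on B1, B2 and B3 and -8.93, -5.12 and -8.36 on D1, D2 and D3. miR-218, which lies inside SLIT2 and SLIT3 and is in the brain list too, gave 7.33, 15.1 and 12.96 on the bright arrays and 1.92, -0.304 and 1.90 on the dim ones. miR-214 was at 2.06, -3.01 and -1.67 against -13.9, -15.2 and -11.1. miR-143, a partner of miR-145 on chromosome 4, was at -6.19, -0.442 and -3.85 against -7.48, -8.64 and -7.26. None of the 4 was detected on an array, and values below 0 have no meaning as a level. The 2 other miRNAs of the list, miR-140 and miR-199, were detected on B1, B2 and B3 and on B2 and B3.

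miR-574, inside FAM114A1 on chromosome 3, was among the highest of the 12, with 7.31, 22.1 and 14.5 on B1, B2 and B3 and 0.336, -1.11 and -4.33 on D1, D2 and D3. miR-196a of the Hox clusters was above 0 on every array, at 15.5, 15.6 and 11.1 on the bright arrays and 6.59, 7.68 and 8.27 on the dim ones.

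**Figure D5:**
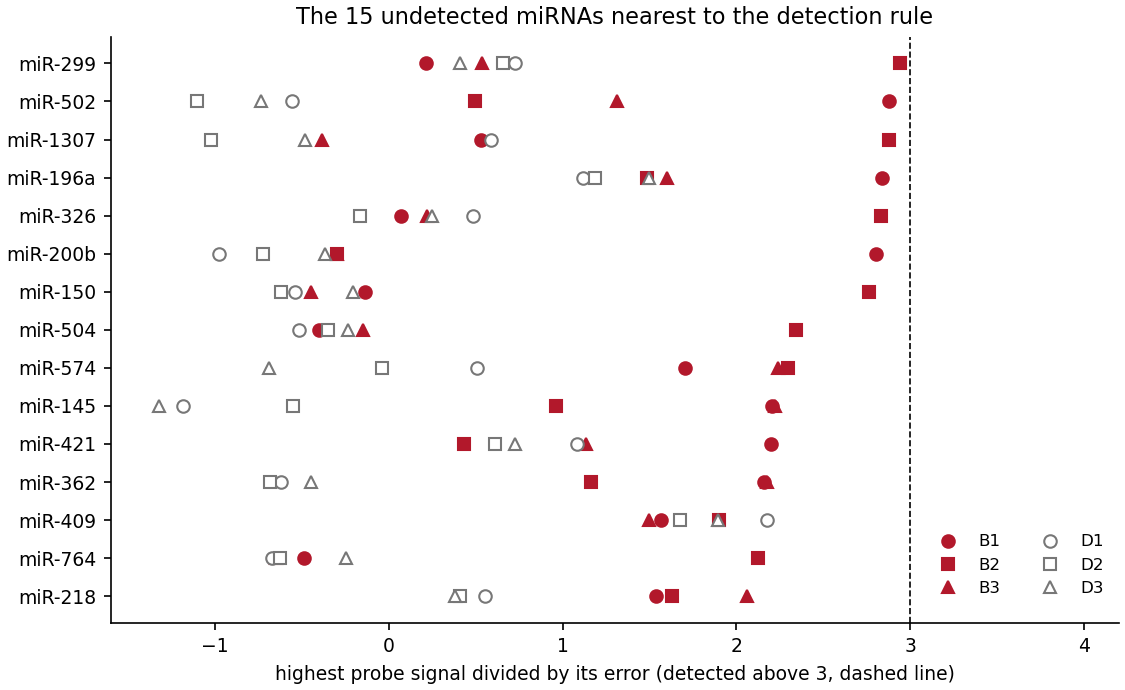
Highest probe signal divided by its error on each array for the 15 undetected miRNAs nearest to the rule (dashed line at 3). Filled red symbols are B1, B2 and B3, and open grey ones D1, D2 and D3. miR-145, miR-362 and miR-574 have all red symbols to the right of the grey ones, while miR-299, miR-326 and miR-150 have B2 alone near the line.

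miR-31, a well-studied miRNA of the mammary epithelium whose loss goes with metastasis in breast cancer models, was among the members outside the lists. It gave -6.17, -5.37 and -4.62 on B1, B2 and B3 and -3.08, -3.67 and -2.49 on D1, D2 and D3, and its ratio stayed at or below 0.26 on all of them. Of 10 miRNAs numbered miR-1835 to miR-1844, 9 were undetected and miR-1844 was detected on B1 alone at 13.4 units. Members made up 34 of the 40 array miRNAs that map to chromosome 8, which holds the DLK1-DIO3 region. On chromosome X they were 24 of 41. Across the array 57.1% of miRNAs were undetected.

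Probe design was compared between the members and the detected miRNAs, and its part in detection was not tested. More than 2 probes were present for 36 of 162 members and 17 of 124 detected miRNAs. The longest probe had a median length of 17 bases for members (quartiles 16 and 19) and 18 for detected miRNAs (16 and 20), and a median GC content of 47.1% in both. The extremes differed, since miR-718 had a probe of 10 bases, all G or C, and the shortest among detected miRNAs had 13. More than 1 genomic locus was given for 9 of 162 members and 20 of 124 detected miRNAs. In the RefSeq gene table (UU_Cfam_GSD_1.0) 161 members had an entry, and 79 of the 162 lay inside a protein-coding gene, against 58 of the 124 detected miRNAs, strand not considered.

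Sca1+ and Sca1- cells were compared last. In a limma model of log2 intensity with the line as a term, fitted over all 289 miRNAs without a filter, 0 of 162 members passed an adjusted p of 0.05, as did 0 of 289 miRNAs (0% of the array). An unadjusted p under 0.05 was found for 1 member, miR-653, and for 1.04% of all miRNAs, and the smallest adjusted p of a member was 0.997. The fit gave every miRNA the same standard error, 2.96 log2 units, so only very large differences could pass. Even miR-138a, a detected miRNA with a log2 difference of 7.31, had an adjusted p of 0.997 in this fit. The count of 0 therefore does not show that Sca1+ and Sca1- cells are alike. The summed probe signals of miR-653 lay between -3.35 and 2.23 on all arrays. The median log2 difference of the members was 1.93 against 0.68 for all miRNAs. It was 0.87 against -0.38 without scaling, -0.20 against -0.10 without the P114 Sca1- array (B3), and -0.11 against -0.02 without the P114 Sca1+ array (D3). Between 58.8% and 72.9% of member spots were at or below 0 and were set to a floor, so these medians are not levels. The median of the members stayed above 0 under each scaling and floor tried. With values under the detection limit set to it, the median was 0.676 for members and for all miRNAs alike, and 162 of 162 members were above 0. A value under the limit is then set by the limit and scaling of its array, so this sign is no check. With another background correction (normexp) the medians were 1.21 for members and 1.18 for all miRNAs. The median of the members turned below 0 only where 1 of the P114 arrays was left out. With the line as a term, leaving out either P114 array removes the same pair, so these are not separate checks. By the scanner files P114 is the only line that pairs a bright with a dim array, and the part of this in the medians was not tested. Both fractions were below the limit for every member, so no fold is given.

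Outlier-flagged spots were left out of the share of member spots well above background. It was 0.0161% and 0% in Sca1+ and Sca1- cells of CMT-U27, 0.0163% and 0.0328% in those of CMT-U309 and 0% in both of P114. The mean within-line difference was -0.000146 percentage points (SD 0.0163, n = 3 pairs). This is a description only, since the members were chosen for lacking detection and 3 pairs allow no exact permutation p below 0.25. Nothing in the labels says that the samples came from separate cultures, and the p-values then cover only the variation among them, which may be technical.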

How the data were processed

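Levels of 289 miRNAs were read from 6 one-colour Agilent arrays, 3 Sca1+ and 3 Sca1- samples. The authors made the intensity values with Agilent Feature Extraction. The file headers give its version as 10.10.1.1, whereas 10.7.3.1 stands in the submitters' processing notes. Per the file headers, spatial detrending was on and no scaling between arrays was applied. The flags for spots and miRNAs and the probe positions (canFam2) were used as deposited. The deposited value table holds the total gene signal, 0.1 where a miRNA is undetected.

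Control spots and outlier-flagged spots were left out. The summed probe signal is the sum of the total probe signals of a miRNA, and the signal-to-error ratio is the highest of its probes. The limma fit (3.58.1, R 4.3.3) used log2 intensity, with values at or below 0 set to the lowest positive value, scaled to the 75th percentile of 10 probes well above background in over 50% of their spots on all arrays. Spots of a probe were averaged and a miRNA took its brightest probe. P-values were adjusted by Benjamini-Hochberg, and the script was tested on simulated data. Sca1+ and Sca1- samples of a line were treated as a pair, being sorted from the same line. Named miRNAs are the undetected ones of the lists, those with most spots well above background (only 3 had any, so the others just inside the rule were ordered by ratio), the 10 dimmest detected on 1 array, and clusters of at least 3, and any others were named after their values were seen. Members and lists were chosen with earlier results of these data known. The number of arrays limits the precision. Tables and figures were made with Python 3.11.15, pandas 2.3.3, numpy 2.4.6 and matplotlib 3.10.9.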

Additional observations from a re-analysis of the deposited data

How the results depend on the processing

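The count of undetected miRNAs was 162 with the detection call and with the value table, and stayed within 1.5 times of that under every other rule tried, from 116 (no probe with over 50% of its spots positive and significant) to 175 (under 50% of the spots of every probe well above background). Leaving out each array gave 162 to 186. With no spot well above background on any array as the rule, 161 were found, 159 of them members and 2 detected by the call. The count of members past the Sca1 test was 0 under all 15 alternatives that gave a value, without the replicate block included (smallest adjusted p over these 0.398, with limma, on B1, B2 and B3 alone). The filter on spots left no member to test. Since only very large differences could pass the main fit, the counts of 0 do not show that the fractions are alike. Members with another member nearby numbered 43 within 1 kb, against 69 within 10 kb and 76 within 50 kb. The lowest total signal of a detected miRNA was 9.13 on B2, 7.82 on B3 and 7.51 on D2, under the spot limits of those arrays. The within-line difference in spots was 0.722 percentage points for positive and significant spots, 0.206 for miRNAs with at least 1 spot, and -0.216 with outlier-flagged spots kept, which was added after seeing the data, and without the replicate block it was -0.000146 as in the paired value. Leaving out samples gave -0.00828 to 0.00806. The cause of these shifts was not tested. Low signal on D1, D2 and D3 limits what their silence shows.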
